A study of Bos grunniens and Bos grunniens x Bos taurus with 12 samples.

Results

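Translation factors and aminoacyl-tRNA synthetases form the machinery that reads the mRNAs captured by Ribo-seq, and their own mRNAs are among those captured. In the deposited tables, 90 of 20965 genes carried a symbol of an initiation factor (EIF), an elongation factor or its modifying enzyme (EEF), a cytoplasmic poly(A) binding protein (PABPC), a release factor (ETF1, GSPT) or a tRNA synthetase, and all 90 were taken by symbol alone, whatever their values. Ribo-seq counts short pieces of mRNA that a bound ribosome shields from nuclease, and the number of these on a gene is taken as its translation level. The 12 libraries came from testes of animals of 1 cooperative, 1 library per animal and 3 per group: yak (Bos grunniens) of 6 months (Y6M, juvenile), 18 months (Y18M, puberty) and 4 years (Y4Y, sexual maturity), and cattle–yak of 4 years (CY), the hybrid of a Jersey bull and a Gannan yak cow. The labels name no treatment. They give castration as the way of collection for all animals, whereas the study's methods give castration for cattle–yak and euthanasia for yak, in which case collection cannot be told apart from the group in each comparison with CY. Whole tissue was used, so fewer cells of a type and less RNA per cell cannot be told apart. No RNA-seq was used here, so a change in mRNA level and a change in translation per mRNA cannot be told apart either.

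Initiation begins when the cap-binding protein EIF4E, the scaffold EIF4G and the RNA helicase EIF4A assemble on the 5′ cap, and PABPC1 on the poly(A) tail joins them through EIF4G. The mRNA then meets the small ribosomal subunit, which carries EIF3, EIF1, EIF1A and the ternary complex of EIF2, GTP and initiator tRNA, while EIF2B recharges EIF2 and EIF2 kinases block that step under stress. Synthetases load tRNAs with amino acids in the cytosol or in mitochondria, elongation factors move the ribosome along, and ETF1 with GSPT1 releases the finished chain. In the mammalian testis this machinery is known for germ-cell forms and for mRNAs that are stored by meiotic and post-meiotic cells and translated later.

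The libraries held 16304058 to 52616039 counts on genes, with medians of 17796018 in Y4Y and 38616961 in CY. Replicate 2 of Y18M stood apart from the other libraries of its group. Its r with the Y4Y libraries over all genes with a mean FPKM above 3, on the log2(FPKM + 1) scale, was 0.939 to 0.944, against 0.559 to 0.631 for replicates 1 and 3. The summed FPKM of the 3 elongating spermatid markers in the table was 6663 in replicate 2, 1.84 and 13.1 in replicates 1 and 3, 8152 to 11200 in Y4Y and 1.13 to 26.4 in CY. For the 4 round spermatid markers the range was 1014 to 1618 in Y4Y and 3.62 to 8.82 in CY, and the acrosomal marker ACRV1 reached at most 1.85 in CY. All 7 fell in CY, whereas all of the 4 Sertoli, 2 Leydig, 4 peritubular myoid and 3 fibroblast markers in the table rose, as did 4 of 6 spermatogonial ones, and of 6 spermatocyte markers 1 rose and 2 fell. The FPKM ranges were 85.5 to 116 in Y4Y and 385 to 415 in CY for Sertoli, 58.8 to 188 and 580 to 1041 for Leydig, 183 to 189 and 724 to 1226 for myoid and 93.8 to 101 and 310 to 527 for fibroblast markers. Of 4 endothelial markers 1 rose and 1 fell, and of 4 macrophage markers none rose and 1 fell. Endothelial markers were at 10.9 to 14.2 in Y4Y and 9.29 to 13.4 in CY, which overlapped. Macrophage markers overlapped too, at 47.2 to 67.4 and 41.2 to 52.1. The markers that rose or fell moved with every comparison of CY and Y4Y below, and their part in it was not tested.

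FPKM, which divides by gene length, allows levels to be compared between genes. The length behind it was not fixed: among 78 genes with at least 100 counts in every library, it differed between libraries by more than 1.2-fold for EIF2D, MARS1 and TARS1, whose changes therefore differ between counts and FPKM. The median FPKM of the 90 genes was 37.2 in Y4Y and 43.1 in CY, against 7.83 and 5.58 for all detected genes. EIF1 and EIF1AX, which keep the scanning small subunit open until the start codon is found, headed the order in all groups. In Y4Y, EIF1 was at 2457 ± 115 FPKM (SD, n = 3) and EIF1AX at 1590 ± 105, whereas in CY EIF1AX was at 2102 ± 305 and EIF1 at 1714 ± 151. Their order was thus opposite in these 2 groups, although the difference of the means in CY was close to its spread between libraries. Within each library the order held. In CY, EIF1AX was at 2420, 1812 and 2075 and EIF1 at 1767, 1543 and 1831. In Y4Y, EIF1AX was at 1640, 1469 and 1660 and EIF1 at 2587, 2371 and 2412. EIF4A1, EEF2, EIF1B and EIF4E followed in CY, where the highest 6 genes held 55.8% of the summed FPKM of all 90. In Y4Y the highest 6 held 58.8%, with EIF3G among them in place of EEF2. At the other end, the germ-cell cap-binding form EIF4E1B had 0 to 8 counts per library and a highest FPKM of 0.65, and was the only one of the 90 that did not pass the filter on low counts.

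The first question was how the machinery differed between the sterile hybrid and the mature yak. In CY against Y4Y, 49 of the 89 genes tested rose and 15 fell at an adjusted p below 0.05 (edgeR's quasi-likelihood test), which was 55.1% and 16.9%. Of all 16498 genes tested, 31.5% rose and 34.1% fell. Differentially translated genes (DTGs) had, besides that p, a change of 1 or more on the log2 scale, and 18 of the 89 were higher in CY and 5 were lower, against a background of 17.0% and 26.9%. The share of higher DTGs was near that of all genes. The median log2 fold change was 0.45, against -0.00 over all genes, with quartiles of -0.08 and 0.91. All 64 genes called had groups that did not overlap in TMM-scaled CPM, the count of a gene per 1000000 counts of its library. In total 55 were higher in every CY library than in every Y4Y library and 16 were lower, where 34.9% and 36.5% of all genes were. When 1 of the 6 libraries was left out, 50 of the 64 calls were made in all 6 fits, and the number that fell dropped from 15 to 8 without replicate 1 of Y4Y and to 9 without its replicate 3.

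**Figure D1:**
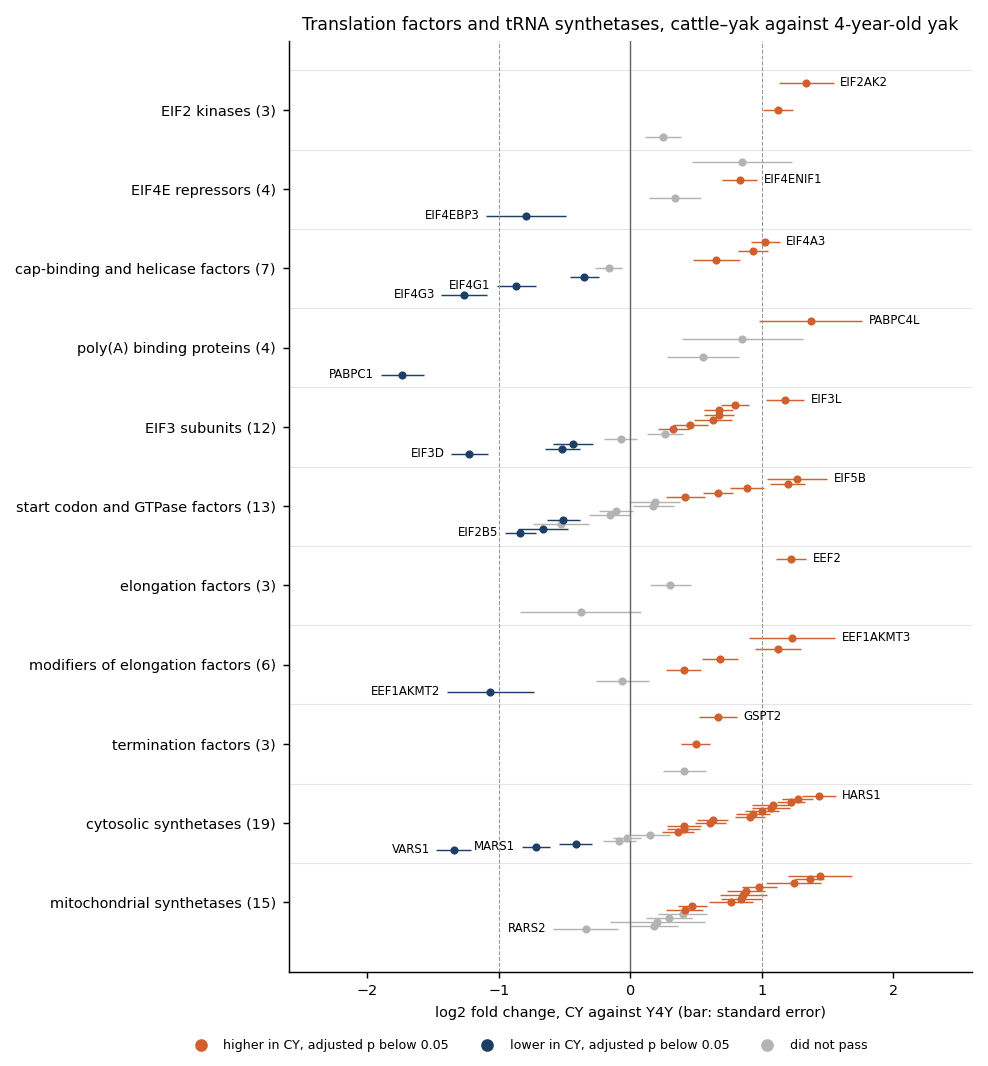
Log2 fold change of CY against Y4Y (x axis, TMM-scaled edgeR fit, bars are standard errors) for the 89 genes tested, each a point, in rows by role with the number of genes in brackets; dashed lines mark a log2 fold change of 1 in either direction. Most points lie to the right of 0, with 49 higher and 15 lower in CY, and PABPC1, VARS1, EIF4G3, EIF3D and EEF1AKMT2 are the 5 to the left of the lower dashed line.

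The cap-binding complex split by subunit. EIF4G1, the main scaffold, had an FPKM of 80.3, 80.1 and 79.6 in the Y4Y libraries and of 51.8, 39.4 and 39.4 in CY. EIF4G3, a second scaffold known for its need in male meiosis, had 75.3, 75.7 and 71.0 in Y4Y and 39.3, 26.8 and 26.7 in CY. Both were lower in every CY library, and both fell, by 0.87 ± 0.15 (SE, adjusted p = 0.00089) and by 1.26 ± 0.17 on the log2 scale (adjusted p = 0.00026, edgeR, n = 3 per group). EIF4G2, a relative that lacks the EIF4E site and serves cap-independent initiation, fell by 0.35 ± 0.11 (adjusted p = 0.023). That last call was made in only 2 of the 6 fits that left out a library, with an adjusted p of 0.11 without replicate 1 of Y4Y.

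The helicases moved the other way. EIF4A1 had an FPKM of 524, 561 and 602 in Y4Y and 1105, 1067 and 1097 in CY, without overlap, and rose 1.91-fold (adjusted p = 0.00013). EIF4A3, which belongs to the exon junction complex rather than to cap binding, rose by 1.03 ± 0.11 on the log2 scale. EIF4E, the cap-binding protein itself, had 415, 407 and 407 in Y4Y and 348, 367 and 373 in CY. All CY libraries were below all Y4Y libraries, but its log2 fold change of -0.17 ± 0.10 did not pass (adjusted p = 0.18). EIF4E3, another cap-binding form, rose by 0.65 ± 0.18.

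The binding proteins that keep EIF4E from EIF4G showed no common direction, with 1 higher, 1 lower and 2 not passing. EIF4ENIF1, which carries EIF4E to the nucleus and to P-bodies, rose by 0.83 ± 0.13. EIF4EBP3 had an FPKM of 11.9, 9.19 and 15.4 in Y4Y and 6.81, 5.72 and 8.31 in CY, and its fall of 0.80 ± 0.30 (adjusted p = 0.044) was called in 1 of the 6 fits that left out a library, with an adjusted p of 0.20 without replicate 3 of Y4Y. The log2 fold changes of EIF4EBP1, 0.85 ± 0.38, and EIF4EBP2, 0.34 ± 0.20, did not pass (adjusted p = 0.081 and 0.16).

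PABPC1, the main cytoplasmic poly(A) binding protein, showed the largest fall of the 89 genes. Its FPKM was 229, 217 and 276 in Y4Y and 85.3, 64.2 and 65.0 in CY, a 3.33-fold lower level (log2 fold change -1.73 ± 0.17, adjusted p = 3.1e-05). The lowest Y4Y library was above the highest CY library by more than the range within either group. PABPC4L, a little-studied relative at a far lower level, had 0.49, 0.49 and 0.86 in Y4Y and 1.38, 1.70 and 1.64 in CY and rose by 1.37 ± 0.39 (adjusted p = 0.013). PABPC1L, the ovary and embryo form, and PABPC5, an X-linked form, had log2 fold changes of 0.85 ± 0.46 and 0.55 ± 0.27 and did not pass.

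**Figure D2:**
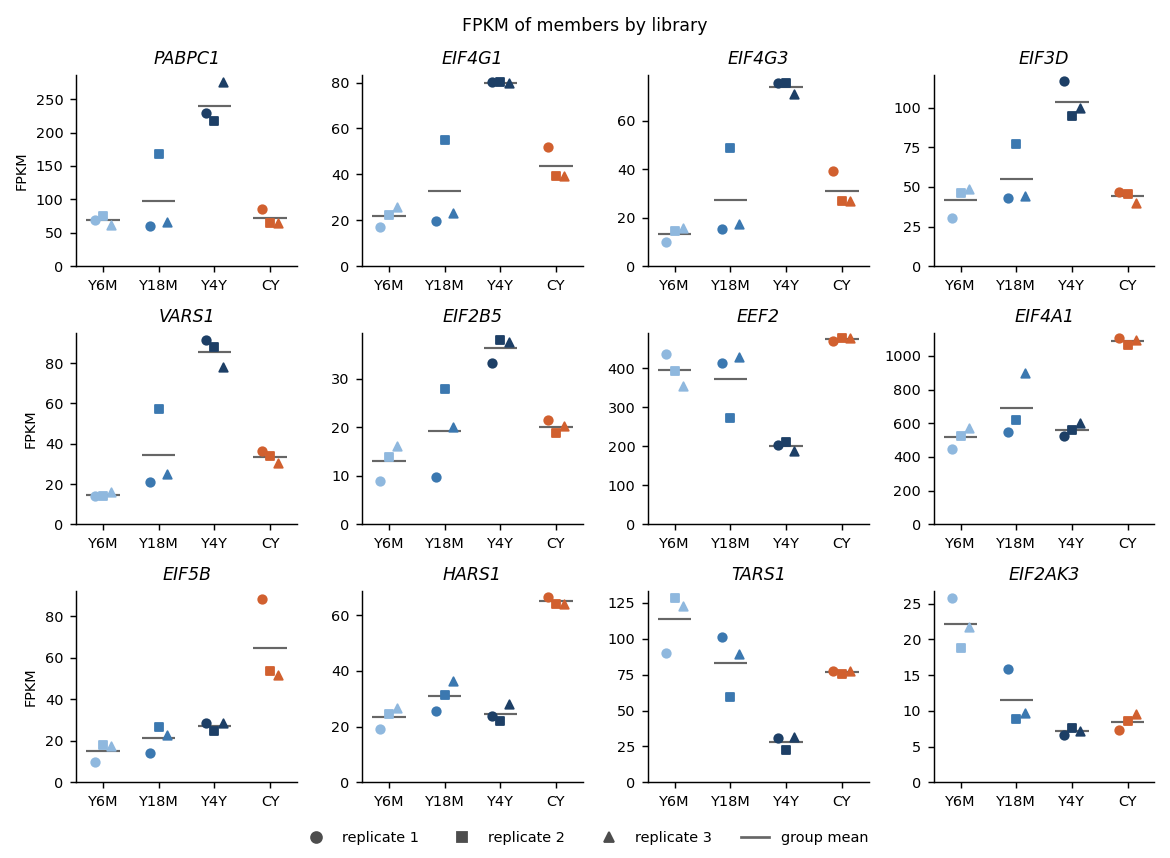
FPKM (y axis, linear and from 0) of 12 of the genes in each of the 12 libraries; colours are groups, marker shapes replicates and grey lines group means. PABPC1, EIF4G1, EIF4G3, EIF3D, VARS1 and EIF2B5 are highest in the 3 Y4Y libraries, and in Y18M their replicate 2 (PABPC1 at 168) lies above replicates 1 and 3 (59.6 and 66.6); EEF2, EIF4A1, EIF5B and HARS1 are higher in all 3 CY than in all 3 Y4Y libraries.

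EIF3 is the large factor that joins the small subunit to the mRNA, and its subunits did not move together. Of the 12 subunits measured, 7 rose, 3 fell and 2 did not pass, with log2 fold changes from -1.23 to 1.18. EIF3D, the subunit that can bind the cap of some mRNAs by itself, had an FPKM of 117, 94.4 and 99.9 in Y4Y and 46.8, 45.3 and 39.9 in CY and fell 2.34-fold (adjusted p = 8.3e-05). EIF3L had 52.6, 65.9 and 46.5 in Y4Y and 110, 132 and 114 in CY and rose 2.26-fold (adjusted p = 0.00012). The groups did not overlap in either, and the 2 subunits changed by about the same factor in opposite directions.

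The core subunit EIF3B rose by 0.79 ± 0.10, EIF3M and EIF3H both by 0.67 ± 0.11, and the loosely bound EIF3J by 0.63 ± 0.14. EIF3A, the largest subunit and core scaffold, did not pass at 0.26 ± 0.13 (adjusted p = 0.11), and neither did EIF3K at -0.08 ± 0.13. EIF3G, which contacts the mRNA, fell by 0.52 ± 0.13, with an adjusted p of 0.051 without replicate 1 of Y4Y. EIF3E fell by 0.44 ± 0.15 (adjusted p = 0.034), a call made in 1 of the 6 fits without a library and with an adjusted p of 0.11 without replicate 2 of CY. EIF3F rose by 0.33 ± 0.12, called in 2 of 6 such fits, and EIF3I by 0.45 ± 0.13, called in all 6.

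Among the 13 factors that find the start codon or handle GTP, 5 rose, 3 fell and 5 did not pass. EIF5B, the GTPase that joins the ribosomal subunits, had an FPKM of 28.4, 24.6 and 28.4 in Y4Y and 88.4, 53.5 and 51.6 in CY, without overlap, and rose by 1.27 ± 0.23 (adjusted p = 0.0016). Replicate 1 of CY was the highest, and without it the increase was 0.95. EIF1 had 2587, 2371 and 2412 in Y4Y and 1767, 1543 and 1831 in CY and fell by 0.51 ± 0.12 (adjusted p = 0.0061). Its close relative EIF1B fell by 0.67 ± 0.19 (adjusted p = 0.062 without replicate 2 of CY). EIF1AX rose by 0.42 ± 0.15 (adjusted p = 0.034, called in 3 of 6 fits without a library, and 0.097 without replicate 1 of CY). EIF5, the activator of the EIF2 GTPase, did not pass at 0.17 ± 0.15, nor did EIF1AD at -0.16 ± 0.16.

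The 5 subunits of EIF2B, the exchange factor for EIF2, also parted. The catalytic subunit EIF2B5 had an FPKM of 33.3, 38.0 and 37.7 in Y4Y and 21.4, 18.8 and 20.2 in CY and fell by 0.84 ± 0.12 (adjusted p = 0.00029). The regulatory subunits EIF2B1 and EIF2B2 rose by 1.19 ± 0.13 and 0.67 ± 0.12, and EIF2B3 and EIF2B4 did not pass at -0.11 ± 0.13 and 0.19 ± 0.20. EIF2A, a factor of non-canonical initiation that is no part of EIF2, rose by 0.89 ± 0.13. EIF2D, which can deliver tRNA without GTP, had a log2 fold change of -0.53 ± 0.21 from counts (adjusted p = 0.053) and of -0.27 from the mean FPKM.

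Of the 3 EIF2 kinases in the table, 2 rose. EIF2AK1, the heme-regulated kinase, had an FPKM of 19.8, 20.8 and 20.2 in Y4Y and 44.9, 45.7 and 40.7 in CY and rose 2.18-fold (adjusted p = 4.4e-05). EIF2AK2 (PKR), which responds to double-stranded RNA, had 2.91, 3.04 and 3.36 in Y4Y and 6.08, 7.78 and 9.15 in CY and rose 2.53-fold (adjusted p = 0.00052). EIF2AK3 (PERK), the kinase of the endoplasmic reticulum, did not pass at 0.25 ± 0.14 (adjusted p = 0.15), with 6.66 to 7.54 in Y4Y and 7.39 to 9.50 in CY.

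EEF2, which moves the ribosome by 1 codon, had an FPKM of 203, 210 and 188 in Y4Y and 471, 477 and 477 in CY. The CY libraries were close to each other and lay far above Y4Y, and EEF2 rose 2.33-fold, that is by 1.22 ± 0.11 (adjusted p = 2.8e-05). EEF2K, the kinase that inhibits EEF2, rose as well, by 0.68 ± 0.14 (adjusted p = 0.0022). EEF1A2, the muscle and neuron form of the factor that delivers tRNAs, stayed at 1.35 to 4.06 FPKM in both groups and did not pass, nor did EIF5A2 at 0.30 ± 0.16. Of the methyltransferases of EEF1A, EEF1AKMT3 and EEF1AKNMT rose by 1.23 ± 0.33 and 1.12 ± 0.17 and EEF1AKMT1 by 0.40 ± 0.14. EEF1AKMT2 had 84.9, 73.8 and 89.5 in Y4Y and 60.3, 24.5 and 32.0 in CY and fell by 1.07 ± 0.33 (adjusted p = 0.024), a call made in 3 of 6 fits without a library (adjusted p = 0.071 without replicate 2 of CY). EEF1AKMT4 did not pass at -0.06 ± 0.20.

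In termination, ETF1, which recognises the stop codon, rose by 0.50 ± 0.11 and its GTPase partner GSPT2 by 0.67 ± 0.14. GSPT1, the more abundant form of that GTPase, had an FPKM of 56.0, 55.4 and 56.1 in Y4Y and 90.7, 62.0 and 67.5 in CY. Its groups did not overlap, but the difference of 0.41 ± 0.16 did not pass (adjusted p = 0.052).

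The tRNA synthetases made up 34 of the 90 genes. Of the 19 cytosolic ones, 13 rose, 3 fell and 3 did not pass, with a median log2 fold change of 0.61. HARS1 (histidine) had an FPKM of 23.8, 22.1 and 28.0 in Y4Y and 66.4, 64.1 and 64.2 in CY and rose 2.70-fold (adjusted p = 2.3e-05). GARS1 (glycine), which also serves mitochondria, had 12.1, 14.1 and 13.6 in Y4Y and 29.0, 33.6 and 33.0 in CY and rose by 1.27 ± 0.12 (adjusted p = 2.4e-05). SARS1 (serine) rose by 1.22 ± 0.11, TARS1 (threonine) by 1.07 ± 0.15 (1.44 from the mean FPKM) and KARS1 (lysine), just below the threshold for a DTG, by 0.999 ± 0.13. YARS1 (tyrosine), LARS1 (leucine), NARS1 (asparagine) and RARS1 (arginine) rose by 0.93, 0.91, 0.62 and 0.61. FARSA and FARSB, the 2 subunits of the phenylalanine enzyme, rose by 0.41 ± 0.13 and 0.36 ± 0.12 and EPRS1 (glutamate and proline) by 0.41 ± 0.13, each called in 5 of 6 fits and with an adjusted p of 0.056, 0.078 and 0.0504 without replicate 1 of CY.

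VARS1 (valine) stood at the other end. Its FPKM was 91.3, 88.1 and 77.9 in Y4Y and 36.3, 33.8 and 30.5 in CY, without overlap, and it fell by 1.34 ± 0.13 (adjusted p = 3.7e-05). MARS1 (methionine) had 48.2, 55.7 and 53.6 in Y4Y and 32.4, 32.9 and 33.9 in CY and fell by 0.72 ± 0.11 (adjusted p = 0.00041). IARS1 (isoleucine) fell by 0.42 ± 0.12 (adjusted p = 0.0165), in 2 of 6 fits without a library and with an adjusted p of 0.081 without replicate 3 of Y4Y. WARS1 (tryptophan), AARS1 (alanine) and QARS1 (glutamine) had log2 fold changes of -0.02, -0.08 and 0.15 and did not pass.

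Of the 15 mitochondrial synthetases, 10 rose, 5 did not pass and none fell, with a median of 0.77. None was also below 0 with an unadjusted p under 0.05 in this edgeR fit, as RARS2 was the only one with a negative value, -0.34 ± 0.25. TARS2 had 19.5, 17.3 and 18.6 in Y4Y and 44.5, 46.4 and 47.4 in CY and rose by 1.36 ± 0.11 (adjusted p = 1.1e-05). EARS2 (glutamate) rose by 1.24 ± 0.21, HARS2 by 0.98 ± 0.13, and LARS2, YARS2, NARS2, VARS2 and IARS2 by 0.88, 0.86, 0.84, 0.77 and 0.47. AARS2 rose by 0.41 ± 0.14, called in 4 of 6 fits, with an adjusted p of 0.097 without replicate 3 of CY. MARS2, PARS2 (proline) and WARS2 did not pass at 0.40, 0.29 and 0.21. CARS2 (cysteine), with 41.8, 46.5 and 38.2 in Y4Y and 58.0, 36.4 and 47.3 in CY, overlapped between the groups and did not pass.

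The cytosolic and the mitochondrial enzyme of the same amino acid were set side by side for 11 amino acids, and the cytosolic one had the higher mean FPKM in both groups for all 11. Both enzymes rose for 5 of them, histidine, leucine, asparagine, threonine and tyrosine. For isoleucine and valine the cytosolic enzyme fell and the mitochondrial one rose. VARS2 rose by 0.77 ± 0.16, from 2.70 to 4.57 FPKM, beside the fall of VARS1 from 85.8 to 33.5. For tryptophan neither passed, and for alanine, methionine and arginine 1 of the 2 did.

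**Figure D3:**
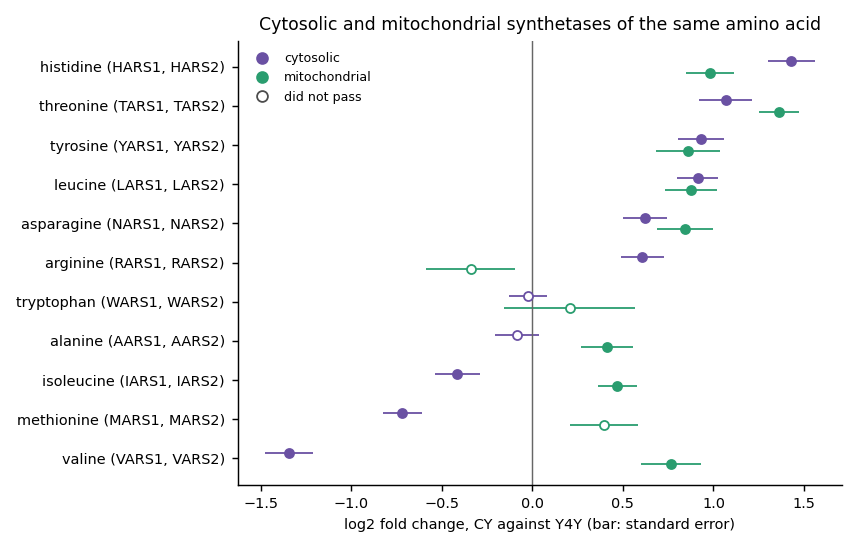
Log2 fold change of CY against Y4Y (x axis, bars are standard errors) for the cytosolic and the mitochondrial synthetase of 11 amino acids (y axis); open circles did not pass at an adjusted p of 0.05. The pairs part most for valine, where VARS1 is at -1.34 and VARS2 at 0.77, and lie close together for leucine, with LARS1 at 0.91 and LARS2 at 0.88.

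The ratio of 2 related genes within a library does not depend on the scaling of libraries. It was computed from counts, so a difference between libraries can be read but not which gene of a pair is higher. In 6 pairs both genes were in the table with at least 10 counts in 3 or more libraries. The log2 ratio of EIF4G1 to EIF4G3 counts was 0.64, 0.49 and 0.61 in Y6M, 0.27, 0.11 and 0.25 in Y18M, 0.03, 0.02 and 0.04 in Y4Y and 0.35, 0.48 and 0.48 in CY. The ranges of the 4 groups did not overlap, with Y6M highest and Y4Y lowest, although CY ended just below Y6M. The groups differed by an exact permutation test over all 15400 divisions of the libraries (p = 6.5e-05, the smallest that it can give; 0.00039 after Benjamini-Hochberg adjustment over 6 pairs). In CY both scaffolds were below their Y4Y levels, EIF4G3 by the larger factor. The ratio of EIF4G1 to EIF4G2 was -0.67, -0.62 and -0.77 in Y4Y, -1.02, -1.28 and -1.37 in CY, -2.27 to -1.87 in Y6M and -2.40, -1.27 and -2.38 in Y18M (exact permutation p = 0.0067, adjusted 0.020).

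The log2 ratio of PABPC1 to PABPC1L averaged 7.57 ± 0.65 (SD, n = 3) in Y6M, 6.45 ± 1.14 in Y18M, 8.89 ± 1.06 in Y4Y and 6.13 ± 0.28 in CY. The 4 groups differed (exact permutation p = 0.012, adjusted 0.024), although PABPC1L had only 8 to 110 counts per library and the adjusted p was 0.05 to 0.089 without replicate 3 of Y4Y or without any 1 of the CY libraries. EIF1 to EIF1B, GSPT1 to GSPT2 and EIF4EBP1 to EIF4EBP2 did not pass over the 4 groups (adjusted p = 0.23, 0.19 and 0.13). Between CY and Y4Y alone the exact permutation p of the 6 pairs was 0.1 to 0.3, where a test of 3 libraries against 3 cannot go below 0.1.

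**Figure D4:**
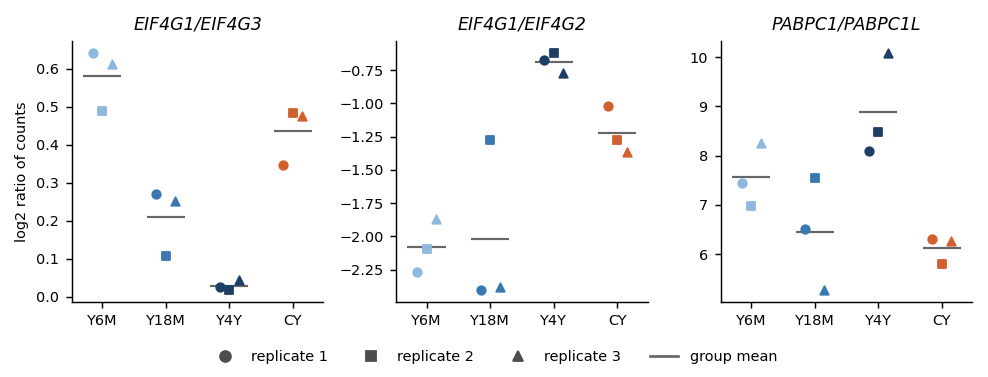
Log2 ratio of counts (y axis) of EIF4G1 to EIF4G3, EIF4G1 to EIF4G2 and PABPC1 to PABPC1L in each library, by group (x axis); marker shapes are replicates and grey lines group means. EIF4G1 to EIF4G3 is between 0.02 and 0.04 in Y4Y and between 0.35 and 0.48 in CY, and replicate 2 of Y18M lies nearer to Y4Y than the other Y18M libraries in the first 2 panels.

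As a share of all counts, the 90 genes took 0.709%, 0.843% and 0.832% in Y6M, 0.859%, 1.08% and 1.06% in Y18M, 1.09%, 1.07% and 1.11% in Y4Y and 1.33%, 1.21% and 1.24% in CY. Every CY library was above every Y4Y library, by 0.167 percentage points on average. With the 100 genes of the highest counts left out of the total, the difference was 0.0693 points, and as a share of summed FPKM it was 0.0555 points. By role, the 4 poly(A) binding proteins with symbols took 0.0474% ± 0.0062 in Y4Y (SD, n = 3) and 0.0150% ± 0.0024 in CY. The 3 elongation factors with symbols took 0.0538% ± 0.0029 and 0.123% ± 0.0008. Both shares leave out rows without a symbol, which were looked at after their values were seen. Of these, the main row of polyadenylate-binding protein 4 had 100.5, 124.1 and 97.04 FPKM in Y4Y and 222.1, 253.4 and 210.3 in CY. The main row of elongation factor 1-alpha 1 had 26553, 23145 and 19613 counts in Y4Y, against 9409, 9770 and 8009 for EEF2. Shares of the whole classes were not computed. Start codon and GTPase factors took 0.250% ± 0.012 and 0.257% ± 0.028, which overlapped.

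**Figure D5:**
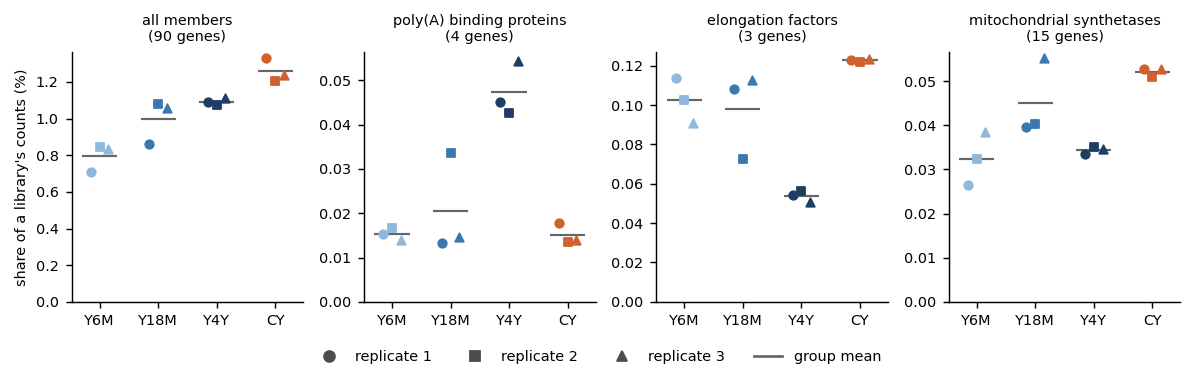
Percent of a library's counts (y axis, from 0) by group. The panels show all 90 genes, the 4 poly(A) binding proteins and 3 elongation factors with symbols, and the 15 mitochondrial synthetases. Rows without a symbol are left out. Marker shapes are replicates and grey lines group means. The 90 genes take 1.21 to 1.33% in CY and 1.07 to 1.11% in Y4Y, and poly(A) binding proteins are the panel in which Y4Y is highest.

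The second question was how the machinery differed between ages of the yak. In Y18M against Y6M, none of the 89 genes passed in edgeR (background 0.0202% higher and 0.0471% lower), and 14 had an unadjusted p under 0.05. In Y4Y against Y18M none passed either (background 0.0% higher and 0.0371% lower), with 38 at an unadjusted p under 0.05. DESeq2 called 0 of the 89 higher and 3 lower in the first comparison (background 7.82% and 6.26%) and 5 higher and 13 lower in the second (background 9.02% and 14.6%). Replicate 2 of Y18M, which stood apart above, widened the spread of its group. Without it, Y4Y against Y18M gave 12 of the 89 higher and 35 lower (background 30.2% and 25.9%) and as DTGs 8 and 15 (background 26.1% and 18.5%), and Y18M against Y6M still gave 0 (background 0.166% and 0.239%). Without replicate 1 of Y18M instead, the latter gave 2 higher and 5 lower (background 8.02% and 8.66%).

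Within Y18M, replicate 2 was the highest library for 14 of the 15 genes that were lower in CY than in Y4Y. Replicate 2 was the lowest library for 41 of the 49 that were higher in CY. For all genes tested the same held for 83.2% of those lower and 70.1% of those higher in CY, on the TMM scale of all 12 libraries. PABPC1 had an FPKM of 59.6, 168 and 66.6 in Y18M, EIF4G3 15.4, 48.9 and 17.2 and VARS1 21.2, 57.3 and 24.9. In each of the 3, replicate 2 lay between the other libraries of its group and Y4Y.

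With replicate 2 left out, the genes higher in Y4Y than in Y18M were led by EIF4G3 at 1.92 ± 0.18 on the log2 scale (adjusted p = 0.00015), PABPC1 with 1.71 ± 0.20, EIF4G1 with 1.69 ± 0.18 and VARS1 with 1.68 ± 0.19. EEF1AKMT2 followed with 1.53 ± 0.21, and EIF2B5, EIF3D, EIF1B, IARS1, EIF1, EIF2D and MARS1 with 0.60 to 1.10. The lower genes were led by PABPC4L at -2.80 ± 0.43, EEF1AKMT3 at -2.07 ± 0.44, EIF2AK2 at -1.95 ± 0.29 and TARS1 at -1.74 ± 0.20 (adjusted p = 0.00045). All 3 EIF2 kinases, 11 of 19 cytosolic and 7 of 15 mitochondrial synthetases were lower, and EEF2 was lower by 1.30 ± 0.20. This comparison and that of CY with Y4Y share the Y4Y libraries, so a like order of genes is no independent result.

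Over the whole series, on the same TMM scale, the group with the highest mean was Y6M for 33 of the 89 genes, CY for 31, Y4Y for 20 and Y18M for 5, against 30.7%, 24.7%, 37.4% and 7.19% of all genes. Y4Y was the lowest group for 51 of the 89 and Y6M for 24, against 35.0% and 35.6% of all genes. On the FPKM scale, where the TMM factors of 0.698 to 0.824 of the Y6M libraries are not applied, CY was highest for 50 and Y6M for 9, against 31.2% and 17.8% of all genes. On that scale Y6M was the lowest group for 50 and Y4Y for 36, against 52.96% and 26.7% of all genes. Which group was lowest for most genes thus turned with the scaling. Y4Y was lowest for 12 of 15 mitochondrial and 12 of 19 cytosolic synthetases on the TMM scale and for 10 and 9 on the FPKM scale.

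The last comparison set CY against the juvenile Y6M. The summed FPKM of the round spermatid markers was 1.28 to 2.51 in Y6M and 3.62 to 8.82 in CY. That of the elongating spermatid markers was at most 1.2 in Y6M, and 26.4, 4.32 and 1.13 in replicates 1, 2 and 3 of CY. Fibroblast markers were at 1812 to 1996 and Leydig markers at 1585 to 2506 in Y6M, both above CY. Endothelial markers were at 21.2 to 29.8 in Y6M and 9.29 to 13.4 in CY, and macrophage markers at 48.9 to 60.3 and 41.2 to 52.1. Spermatogonial markers were at 306 to 453 in Y6M and 1444 to 1594 in CY, spermatocyte markers at 125 to 188 and 307 to 472, myoid markers at 110 to 185 and 724 to 1226, and Sertoli markers at 192 to 272 and 385 to 415. The part of these markers in the comparison was not tested. The comparison shares the CY libraries with the first comparison. Here 27 of the 89 genes were higher in CY and 20 lower (background 28.7% and 29.0%), and as DTGs 3 and 6 (background 18.1% and 19.7%), with a median log2 fold change of 0.08. When scaled by library size alone, the median of all genes moved to 0.52, and 53 genes were higher and 6 lower (background 45.2% and 16.7%), so the direction of small differences here rested on the scaling.

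The DTGs higher in CY than in Y6M were EEF1A2, with 0.19, 0.70 and 0.09 FPKM in Y6M and 2.06, 1.35 and 3.83 in CY, EEF1AKNMT and EIF5B. EEF1AKNMT, which methylates EEF1A, had 3.09, 2.38 and 3.72 in Y6M and 15.4, 17.8 and 20.6 in CY and was higher by 2.01 ± 0.21 (adjusted p = 0.00013). EIF5B was higher by 1.58 ± 0.26 (adjusted p = 0.0012). The groups did not overlap in any of the 3.

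The 6 DTGs lower in CY than in Y6M were PABPC4L at -2.32 ± 0.28, EIF2AK3 at -1.94 ± 0.20, EIF2AK2 at -1.47 ± 0.24, EEF1AKMT3 at -1.45 ± 0.27, TARS1 at -1.32 ± 0.15 and PABPC5 at -1.15 ± 0.21. Only PABPC4L and EIF2AK3 were DTGs when scaled by library size alone, at -1.80 and -1.38. The other 4 were then at -0.61 to -0.95 and still passed (adjusted p up to 0.039), and from the mean FPKM TARS1 was at -0.56. EIF2AK3 had an FPKM of 25.8, 18.8 and 21.8 in Y6M and 7.39, 8.61 and 9.50 in CY. EIF2AK2, at 9.41, 16.3 and 18.8 in Y6M, was thus highest in the juvenile, lowest in Y4Y and between them in CY. EIF4G3 and VARS1 were higher in CY than in Y6M by 0.63 ± 0.19 and 0.65 ± 0.13 (adjusted p = 0.021 and 0.0033). EIF4G1, at 17.3, 22.1 and 26.0 FPKM in Y6M, was higher in CY by 0.47 ± 0.17 (adjusted p = 0.039), and without a library that call was made in 1 of 6 fits. For PABPC1 the fitted value was -0.49 ± 0.17 (adjusted p = 0.035), but it was 0.05 when scaled by library size alone.

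Lists of partner genes of the machinery were read beside the 89 genes in CY against Y4Y. The background for every list is that 31.5% of all 16498 genes tested rose and 34.1% fell. No list was tested against it. A further list, of factors with a terminal oligopyrimidine 5′ end, held only genes of the 89. Of its 6 genes 3 rose and 2 fell. Of 9 mitochondrial translation factors 7 rose and 2 fell, with a median of 0.71. TUFM, the mitochondrial elongation factor, rose from 151 ± 32 to 322 ± 25 FPKM (SD, n = 3), and the initiation factor MTIF3 fell from 20.4 ± 4.2 to 11.2 ± 2.1. Of 7 genes of mTORC1, the kinase complex that controls the EIF4E-binding proteins, and its regulators, 3 rose and 1 fell. RHEB, its activator, rose from 60.4 ± 4.6 to 138 ± 14.2 FPKM and the kinase MTOR itself fell by 0.87 ± 0.13. The others that rose were RPTOR, by 0.99 ± 0.14, and TSC2, by 0.77 ± 0.17. TSC1, RPS6KB1, RPS6KB2, RPS6 and LARP1 of the same list had no symbol in the table.

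Of 6 tested genes linked to the action of EIF2 kinases, 3 rose and none fell in edgeR (background 31.5% and 34.1%). The serine synthesis enzymes PSAT1 and PHGDH rose by 2.46 ± 0.18 and 2.42 ± 0.15 and SESN2 by 1.52 ± 0.17. ASNS, at -0.04 ± 0.15, DDIT3, at -0.29 ± 0.24, and PPP1R15B, at 0.26 ± 0.15, did not pass. In CY against Y6M, 7 were tested, and 1 was higher and 3 were lower (background 28.7% and 29.0%). The mean FPKM in Y6M, Y4Y and CY was 216, 44.0 and 246 for PSAT1. It was 232, 28.0 and 143 for PHGDH and 19.8, 8.23 and 23.8 for SESN2. The cause of these differences was not tested. Of 10 mRNA-binding partners in germ cells, 4 rose and 5 fell, led by YBX2, the germ-cell Y-box protein that stores mRNA, from 507 ± 81 to 9.18 ± 3.23 FPKM. Of 5 recycling genes 2 rose and N6AMT1, which methylates ETF1, fell by 0.91 ± 0.19. The 2 scaffolds of the multisynthetase complex in the table, AIMP1 and AIMP2, did not pass at -0.16 ± 0.16 and 0.28 ± 0.13.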

How the data were processed

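Per the study's methods, fastp served for trimming, Bowtie2 for removal of rRNA and BLAST for that of other small RNAs; reads of 20 to 40 bp were aligned to the yak genome by STAR. The authors deposited counts per gene from RSEM as whole numbers without normalization. The deposited FPKM is per gene length and library total, with a length that differed between libraries for a few genes. The authors' fold change, p-value and FDR columns and tables of group means were not used. Reads shared by near-identical gene copies may be split between them. Reads of CY, a hybrid with cattle, were aligned to the same yak genome. The effect of this on comparisons with CY was not tested.

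Genes were taken by symbol, and members, roles, lists and pairs were chosen with earlier results of these data known. Genes passing filterByExpr were scaled by TMM and fitted with edgeR 4.0.16 (robust quasi-likelihood, 6 libraries per comparison, adjusted over all genes; R 4.3.3). The standard error was taken as the log2 fold change over the square root of F. "Rose" and "fell" follow an adjusted p below 0.05. Named were 30 genes of a panel of 42 symbols, up to 6 genes at each end of a comparison with groups that did not overlap, and the extreme synthetases; other genes were named within their role after their values were seen. The alternatives were DESeq2 1.42.0, limma 3.58.1 on log2(FPKM + 1) or log2(FPKM + 0.1), other scalings, no filter, all 12 libraries, a replicate block and each library left out. The fit was tested on simulated data. P-values measure the spread between animals together with that of library preparation. Sequences and coordinates were not used here. The values of 2 synthetases are not reported here.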

Additional observations from a re-analysis of the deposited data

How the results depend on the processing

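In CY against Y4Y, direction held under every alternative run for those called of the 28 genes of the naming rule that were recomputed, and the count that fell was 8 to 15 and that which rose 45 to 51 over the fits that left out a library (DTGs 4 to 6 and 16 to 23). Of 252 values from other settings 7 no longer passed. In CY against Y6M the counts depended on scaling: higher and lower genes numbered 53 and 6 by library size alone, 53 and 6 by limma on log2(FPKM + 1), 52 and 6 with a pseudocount of 0.1, and DTGs 23 and 2, 22 and 2, and 24 and 2. By library size alone, log2(FPKM + 0.1) and log2(FPKM + 1), 3 genes reversed: EEF2K (0.0719, 0.0753, 0.0715), EIF4G2 (0.151, 0.153, 0.153) and PABPC1 (0.0507, 0.0421, 0.0416). All 12 libraries in 1 fit gave 12 lower there, and leaving out a library 17 to 27 higher and 10 to 18 lower (2 to 4 and 6 DTGs). In Y18M against Y6M, DESeq2 called 3 lower (1 DTG), 12 libraries 3 higher and 6 lower (1 and 2 DTGs), and leave-one-out 0 to 2 higher and 0 to 5 lower (0 to 2 and 0 to 4 DTGs). In Y4Y against Y18M, DESeq2 called 5 higher and 13 lower (4 and 10 DTGs), 12 libraries 8 and 29 (4 and 10 DTGs), and leave-one-out 0 to 12 and 0 to 35 (0 to 8 and 0 to 15 DTGs). The 12 and 35 came without replicate 2 of Y18M, the 2 and 5 without its replicate 1. The share over all genes was computed only for fits with a background given above. For the other counts here it was not computed, so they say nothing about these genes beside all genes. The cause of the differences between settings was not tested.

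Replicate numbers did not pair the animals (r of same-numbered libraries -0.10 to 0.07). With the replicate block the counts were 47 higher and 15 lower in CY against Y4Y, 17 and 15 in CY against Y6M and 0 and 1 (1 DTG) in Y18M against Y6M. For the block fits the share over all genes was not computed either. Of 6 ratio pairs 3 passed, and 2 to 5 with a library left out (5 without replicate 1 of Y18M, 4 without replicate 1 of Y4Y, 2 without any 1 CY library or replicate 3 of Y4Y). The difference in the share of counts was 0.0555 points with summed FPKM and 0.0693 without the 100 highest genes, and 0.131 to 0.193 with a library left out. Low counts limit EIF4E1B and PABPC1L.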

Other observations

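Several central factors had no symbol in the deposited tables and so were outside the 90 genes. By description, 40 further rows named such a factor, and they took 0.466% of counts in Y4Y and 0.596% in CY. Of the 30 tested in CY against Y4Y, 9 rose and 6 fell (background 31.5% and 34.1%), with a median log2 fold change of -0.01. They were looked at after their values were seen, and descriptions of near-identical copies make their assignment uncertain.

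The row described as elongation factor 1-alpha 1 with the most counts had an FPKM of 1052, 914 and 848 in Y4Y and 1468, 1747 and 1479 in CY. A row described as elongation factor 1-alpha 1-like had 2.39, 0 and 7.46 in Y4Y, at most 1.55 in Y6M and Y18M and 619, 601 and 495 in CY. Another row described as elongation factor 1-alpha 1 had 0 counts in all 9 yak libraries and in replicate 2 of CY, and 8095 and 6643 counts in replicates 1 and 3 of CY. Reads of the hybrid were aligned to the yak genome too, and the part of this in such rows was not tested. Of 3 rows of the EIF2 subunit 3, 1 rose by 1.44 on the log2 scale, 1 was at -0.11 and did not pass and 1 had 0 counts, and the row of EIF4B rose by 1.17. Of 2 rows of elongation factor 1-delta, 1 fell by 1.03 and the other, at -0.39, did not pass, and the row of elongation factor 1-gamma was at -1.07.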
